A study of Brassica rapa with 28 samples.

Results

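The genes described here are 150 of the 48826 gene IDs measured in Brassica rapa leaves, chosen because their transcripts were far lower in darkened wild-type leaves and back at the starting level 24 h after the cover came off. They were chosen on CPM, the count of a gene scaled to a library of 1000000 counts. The rule took log2(CPM + 1), averaged it over the wild-type libraries of each stage, and asked for a mean under 500 CPM at pre and of at least 0.5 CPM at dark. It also asked for a recovery mean within 0.5 log2 units of the pre mean. Of the 18110 genes that met this, the 150 with the lowest dark minus pre difference were kept. The wild-type pre, dark and recovery libraries therefore fixed the shape of the course in the wild type, which is given below as a description with no test. The mutant libraries and the 24hr libraries of both genotypes took no part in the choice, and tests are given on those.

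The mutant plants carried BrphyB-3, a mutation in a gene for phytochrome B, and the wild type was the line R-o-18, which is also the strain label of the mutant samples. Sampling began at 3 weeks of age, in long days of 16 h light and 8 h darkness at 20 °C, always 5 h after lights on. One leaf stayed uncovered and gave the pre punch and, 24 h on, the 24hr punch. The other tagged leaf went under foil when pre was taken. It gave the dark punch 48 h after the 24hr one, as the foil came off, and the recovery punch 24 h after that. Each sample combined tissue of 3 plants, here called a pool. The mutant had 3 pools (3 to 5) and the wild type 4 (3 to 6). With all 4 stages of each, the 28 libraries held 4928822 to 14159657 counts. The mutant is represented by 1 allele, and the level of the photoreceptor gene was not analysed here as a check of the labels.

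Phytochrome B is a red-light photoreceptor that moves to the nucleus in its light-activated form, where it restrains a family of transcription factors that act in darkness. In leaves, light drives transcription of genes for photosynthesis, pigment synthesis and growth through phytochromes, cryptochromes and signals from the chloroplast. Shading a single leaf while the rest of the plant stays lit is a common way to start leaf senescence, and early stages of it can be undone by light. The files do not pair gene IDs with names, and 0 of the 150 IDs matched the RefSeq gene table used here, so members are given by ID and no function is assigned to any of them.

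Wild-type members had a median of 107 CPM at pre, with a lowest of 21.4 and a highest of 482 CPM. The dark median was 5.64 CPM, from 0.504 to 52.2 CPM, and the recovery median was 117 CPM, from 24.3 to 506 CPM. At 24hr, which the rule did not use, the median was 114 CPM, from 20.0 to 491 CPM. The pre, dark and recovery values chose the members. The dark minus pre difference ran from -6.62 to -3.44 log2 units, and the last member and the first gene left out both lay at -3.44. Another 119 genes had a fall at least as large and missed only the return condition, 62 of them above and 57 below their starting level. The members nearest to that limit lay at 0.49 and -0.50 log2 units, and the nearest genes outside lay at 0.50 and -0.51. A further 57 such genes missed only the limit at pre, where the highest member had 482 CPM and the nearest gene outside had 501 CPM. Another 63 missed more than 1 condition. The dark minimum alone excluded 21, where the lowest member had 0.504 CPM and the nearest gene outside had 0.48 CPM. All 150 members passed the low-count filter that left 24992 genes for testing. That is no support for the choice, because the levels at pre, 24hr and recovery alone carry them through it.

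The mutant, which the rule did not see, followed a like course. The members had a median of 116 CPM at pre (lowest 17.7, highest 512), 97.5 CPM at 24hr (lowest 9.99, highest 506), 6.32 CPM at dark (lowest 0.286, highest 59.8) and 115 CPM at recovery (lowest 12.6, highest 526). Together they took a pre share of 2.01% to 2.46% of all counts in the 3 mutant libraries, a 24hr share of 1.91% to 1.98%, a dark share of 0.0825% to 0.216% and a recovery share of 2.08% to 2.18%. The wild-type share was 2.05% to 2.31% before covering, 1.91% to 2.56% at 24hr, 0.0599% to 0.252% in darkness and 2.12% to 2.50% after it. Dark libraries lay below every library of the other stages in both genotypes. By this share of counts, mutant 24hr libraries lay just below those of mutant pre and recovery, while the wild-type stages other than dark overlapped. On the mean of log2(CPM + 1), mutant 24hr and recovery overlapped as well. There, mutant pool 3 at 24hr (6.63) lay above mutant pools 4 and 5 at recovery (6.61 and 6.62). In bulk leaf tissue, fewer cells that express a gene and less RNA per cell cannot be told apart.

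**Figure D1:**
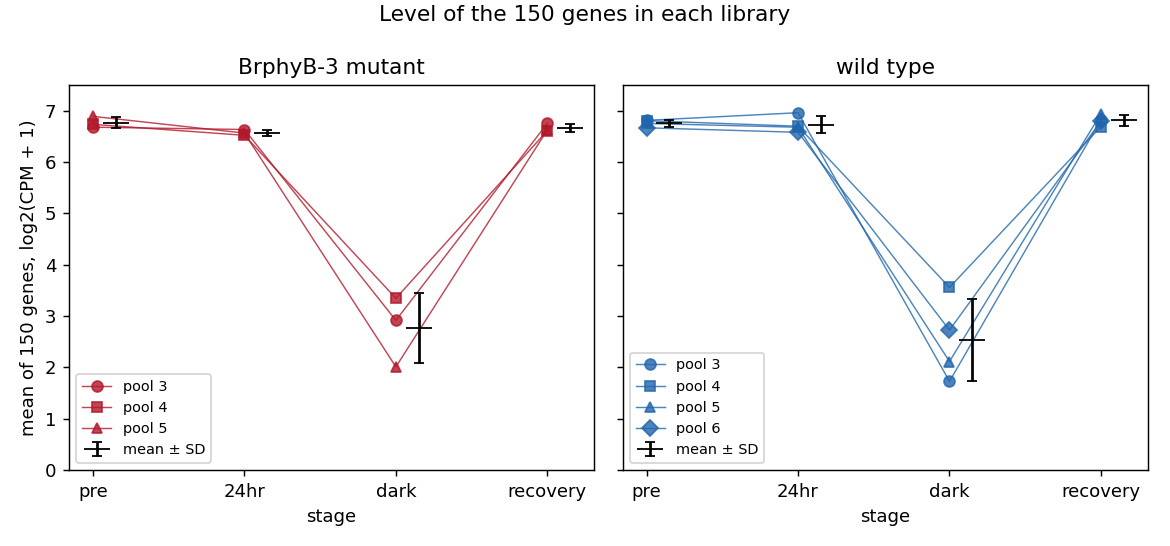
Mean level of the 150 genes, log2(CPM + 1), in each library by stage, with mutant pools on the left and wild-type pools on the right. Lines join libraries of the same pool and black marks give the mean ± SD. Mutant means are 6.77 at pre and 2.76 at dark, and the pools differ most at dark.

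The comparison of mutant dark with mutant pre asked whether the loss in darkness held in plants the rule had not used. All 150 members were lower at dark by edgeR's quasi-likelihood test (adjusted p under 0.05, Benjamini-Hochberg), where 28.2% of all genes tested were called lower. Their log2 fold changes ran from -7.36 to -2.29 with a median of -4.25, against a median of -0.08 over all genes tested. In 150 of 150 members the 3 dark libraries lay below all 3 pre libraries, which held for 26.6% of all genes tested. In the mutant, a member at dark kept a median of 6.05% of its pre level, from 0.668% to 22.2%. The wild-type share was 5.70%, from 0.533% to 13.9%. Dark and pre samples came from different leaves on different days, so the contrast also holds any difference between leaves and days. With the 24hr punch as the start, 150 of 150 members were again lower, with a median of -4.01, where 29.0% of all genes tested were called lower.

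Members with the lowest wild-type differences also tended to have the lowest mutant ones. The 75 members with the larger wild-type differences had a median dark minus pre difference of -4.41 log2 units in the mutant, and the other 75 had -3.51. Across the 150 members the differences of the genotypes had a Pearson r of 0.723, from separate libraries. This describes genes that were all selected for a large fall and share the same libraries, so no p is given. Of the 150 members, 123 were among the 500 genes with the lowest dark minus pre difference in the mutant, and 147 were among the lowest 1000. The same rule applied to the mutant libraries picked 79 of the 150 members, 52.7% of each list.

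BraA09002255 had the largest mutant fall among members with at least 10 CPM at pre. In mutant pools 3, 4 and 5 it had 1.62, 2.63 and 0.128 CPM at dark, the last from 1 count, against 242, 171 and 242 CPM at pre. Wild-type pools 3 to 6 had 0.498, 4.87, 0.692 and 2.73 CPM at dark and 210.1, 180.0, 195 and 163 CPM at pre. Every dark library was far below every pre library in both genotypes. The mutant log2 fold change was -7.36 (SE 0.65, adjusted p 6.61e-09, edgeR quasi-likelihood). At recovery it was back to 217, 201 and 180.3 CPM in the mutant pools, within the spread of the pre and 24hr libraries.

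BraA05003403 had the smallest mutant fall. Its mutant libraries had 12.5, 10.7 and 1.79 CPM at dark, against 52.0, 34.0 and 26.7 CPM at pre. Wild-type libraries had 1.33, 8.12, 2.42 and 2.32 CPM at dark and 47.1, 61.9, 34.5 and 44.5 CPM at pre. Mutant pools 3 and 4 at dark lay above all 4 wild-type dark libraries, while mutant pool 5 lay within them. The rule asked for a large wild-type fall and this member was named for its small mutant fall, so this difference is not tested. The log2 fold change in the mutant was -2.29 (SE 0.49, adjusted p 0.000418, edgeR quasi-likelihood).

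The dark level of the members differed between pools by more than their level at any other stage. The mean of the 150 members was 2.92, 3.35 and 2.01 log2 units in mutant pools 3, 4 and 5 at dark, and 1.73, 3.56, 2.12 and 2.73 in wild-type pools 3 to 6. At pre the corresponding values were 6.68, 6.73 and 6.89 in the mutant and 6.81, 6.80, 6.75 and 6.67 in the wild type. The genotypes overlapped at dark, and the range within each genotype was wider than the difference between the genotype means of 2.76 ± 0.68 (SD, n = 3) in the mutant and 2.53 ± 0.80 (SD, n = 4) in the wild type.

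Most members had the same pools highest and lowest. Mutant pool 4 was the highest dark library of its group in 118 of 150 members (78.7%), and mutant pool 5 the lowest in 129 (86.0%). Wild-type pool 4 was the highest of its group in 133 members (88.7%), and wild-type pool 3 the lowest in 102 (68.0%). Among other genes at a similar dark level, pool 4 was the highest for 46.1% in the mutant and 38.1% in the wild type. The pool most often lowest among these other genes was pool 3 in both, for 42.0% in the mutant and 43.8% in the wild type. The median SD between mutant pools was 0.71 log2 units at dark, and the pre, 24hr and recovery libraries had 0.31, 0.29 and 0.27. In 7117 other genes with a mutant dark level between 2.69 and 13.6 CPM, the middle range of the members, the median SD at dark was 0.34. The wild-type members had a median SD of 0.87 at dark, the pre, 24hr and recovery libraries had 0.25, 0.30 and 0.27, and 6299 other genes at 2.59 to 10.7 CPM in dark leaves had 0.40. Wild-type dark pool 4, with the highest member level, had the fewest counts of all libraries (4928822). Mutant dark pool 5, with the lowest member level of the mutant, had the fewest counts of the mutant libraries (7839529). The part of depth in this spread was not tested. In mutant dark pool 5 the median member still had 20 counts and 7 members had 0 counts, which allows up to 3 counts, or 0.383 CPM, for counting error only.

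**Figure D2:**
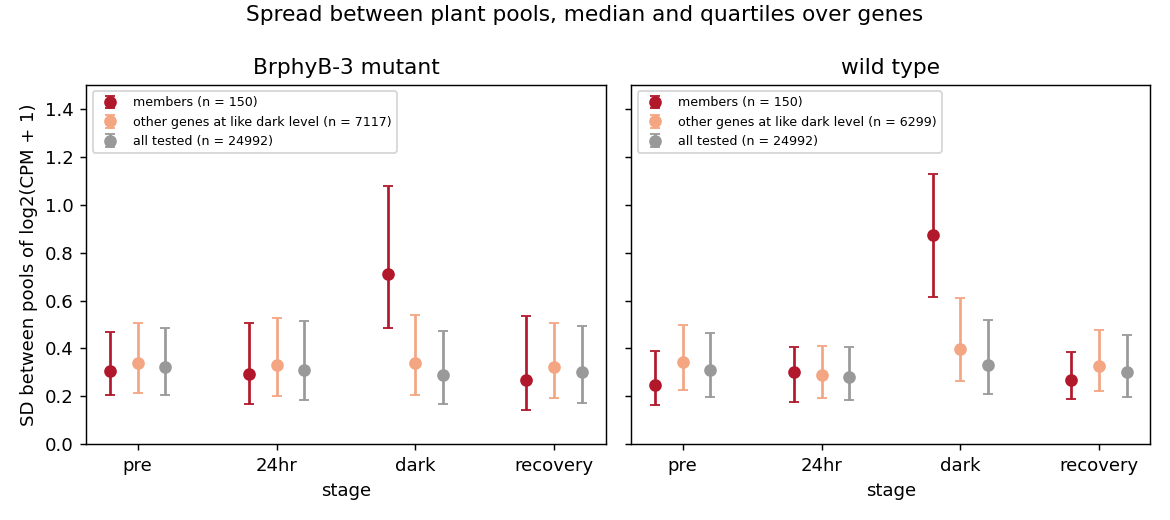
SD between pools of log2(CPM + 1) by stage, with the mutant on the left and the wild type on the right. Points are medians and bars are quartiles over the 150 members, other genes at a similar dark level, and all genes tested. Members stand at 0.71 in the mutant and 0.87 in the wild type at dark, and near the other genes at the 3 other stages.

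The comparison of mutant recovery with mutant dark, in the same leaf 24 h apart, asked whether the genes came back. Of the 150 members, 149 were higher at recovery by edgeR's quasi-likelihood test with an adjusted p under 0.05, where 27.5% of all genes tested were called higher. The median log2 fold change was 4.23, against 0.06 over all genes tested. In 147 members all 3 recovery libraries lay above all 3 dark libraries, which held for 25.6% of all genes tested. On the log2(CPM + 1) scale, the mean of the members in the mutant regained 102.0%, 96.4% and 94.6% of its fall in pools 3, 4 and 5. The average was 97.7% ± 3.88 (SD, n = 3), and with 24hr as the start it was 102.5% ± 1.02. These are shares of a log2 difference, not of CPM. Recovery minus pre was 0.07, -0.12 and -0.265 log2 units in mutant pools 3, 4 and 5. In the wild type, where the rule fixed the return, the shares were 100.2%, 96.5%, 104.1% and 103.3% in pools 3 to 6. When the members were chosen again without a wild-type pool, that pool regained 103%, 94.0%, 104% and 103% for pools 3 to 6 in turn, and the mutant pools averaged 96.4% to 99.3% on the same lists. Each average covers 3 mutant pools and each left-out value is a single pool. Single mutant pools ran from 93.1% to 105% over these lists, beyond the left-out wild-type pools at both ends. No test of the genotypes is given because the wild type set the list.

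BraA01003250 had the largest mutant rise at recovery of the members not already named. Its mutant libraries had 471, 333 and 171 CPM at recovery, against 1.35, 6.46 and 0.638 CPM at dark. The wild-type libraries had 304, 256, 238 and 408 CPM at recovery and 0.914, 19.1, 2.54 and 7.27 CPM at dark. No recovery library came near a dark library in either genotype. The log2 fold change in the mutant was 7.05 (SE 0.82, adjusted p 2.63e-07, edgeR quasi-likelihood).

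Mutant recovery against mutant pre asked which members were not back at their starting level. By edgeR's quasi-likelihood test 1 of 150 members passed, lower at recovery, where 1.37% of all genes tested were called in either direction. An unadjusted p under 0.05 was reached by 7 members (4.67%), a smaller share than the 13.8% of all genes tested. The share called after adjustment is near the background and is no result about the group. The median log2 fold change was -0.03, against 0.00 over all genes tested, and the members ran from -2.64 to 1.10. On the scale of the rule, 115 members lay within 0.5 log2 units of pre, 25 lay further below and 10 further above. That is 76.7% of members, against 77.4% of all genes tested. In single pools 96, 95 and 90 members lay within 0.5 in mutant pools 3, 4 and 5, and 91, 114, 109 and 98 in wild-type pools 3 to 6. This contrast also crosses leaves.

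**Figure D3:**
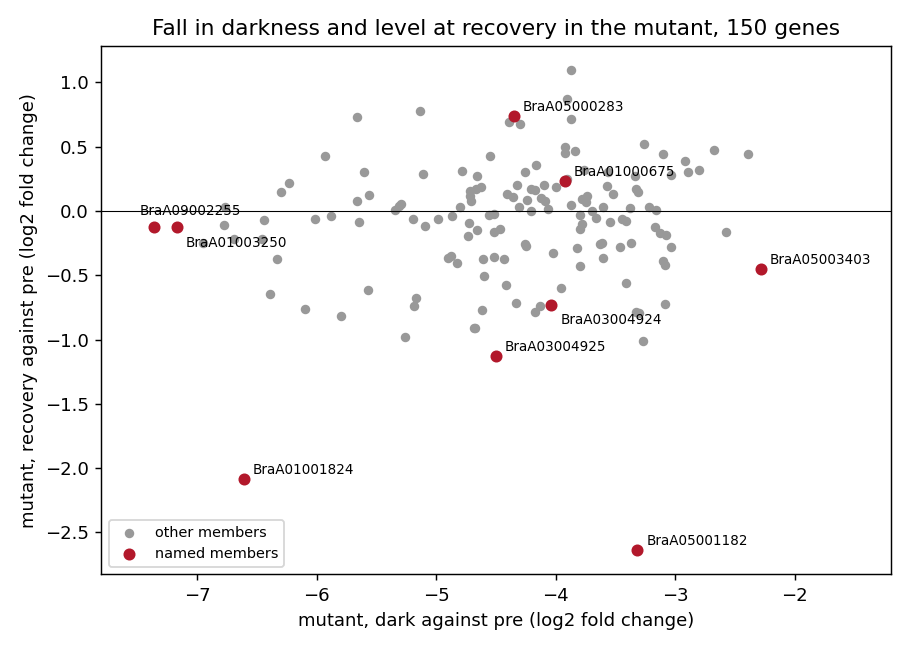
Each point is 1 of the 150 members in the mutant, with the log2 fold change of dark against pre on the horizontal axis and of recovery against pre on the vertical axis. Named members are red. Most members lie near 0 on the vertical axis, and BraA05001182 (-2.64) and BraA01001824 (-2.09) lie lowest.

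The member that passed was BraA05001182, which is named after its values were seen. In mutant pools 3, 4 and 5 it had 9.41, 11.9 and 16.6 CPM at recovery, against 66.0, 88.7 and 81.2 CPM at pre and 72.2, 81.3 and 69.4 CPM at 24hr. Its mutant dark libraries had 15.2, 10.1 and 0.893 CPM, so the recovery libraries had left the dark range only in pool 5. Wild-type libraries had 100.4, 93.9, 102.6 and 72.0 CPM at recovery and 29.5, 111.5, 116.9 and 108.2 CPM at pre. All 3 mutant recovery libraries were below all 4 wild-type recovery libraries, but the rule required the wild type to return, so this difference is not tested. Mutant recovery against pre had a log2 fold change of -2.64 (SE 0.67, adjusted p 0.0474, edgeR quasi-likelihood), and recovery kept 16.1% of the pre level. Recovery against dark in the mutant had 0.68 (SE 0.65, adjusted p 0.395), and this was the 1 member not called there. The call against pre was close to the threshold. It was lost with RLE scaling (adjusted p 0.0509) and when only the groups compared were fitted (0.124). It was also lost without wild-type pool 3 (adjusted p 0.051), 5 (0.0607) or 6 (0.0864) and without mutant pool 3 (0.17), 4 (0.297) or 5 (0.136), while the log2 fold change stayed between -2.81 and -2.48 over the 15 alternatives run.

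BraA01001824 had the next lowest level at recovery relative to pre and is also named after its values were seen. In the mutant it had 102.5, 87.7 and 166 CPM at recovery, against 549, 507 and 479 CPM at pre, and 436, 367 and 717 CPM at 24hr. The wild type had 315, 418, 422 and 245 CPM at recovery and 487, 518, 492 and 431 CPM at pre. All wild-type recovery libraries were thus also below all wild-type pre libraries, with a mean of 72.6% of pre. At -0.49 log2 units in the wild type, this member only just met the return condition. Every mutant recovery library was below every mutant library of pre and 24hr. The log2 fold change of mutant recovery against pre was -2.09 (SE 0.56, adjusted p 0.0647, edgeR quasi-likelihood), which did not pass, while the DESeq2 Wald test gave an adjusted p of 0.0107. Unlike BraA05001182 it was well above its dark level of 2.25, 13.4 and 2.55 CPM, with a log2 fold change of recovery against dark of 4.52 (SE 0.64, adjusted p 3.16e-06). With 24hr as the start these were the 2 members called lower at recovery by edgeR's quasi-likelihood test, where 2.12% of all genes tested were called lower. The adjusted p was 0.0368 for BraA05001182 and 0.0442 for BraA01001824. Neither was called without wild-type pool 6 or without any 1 mutant pool. BraA05001182 alone was called without wild-type pool 5 and when only the groups compared were fitted. Most other members leaned the other way in this contrast, with 104 of 150 above 0 and a median of 0.28, against -0.02 over all genes tested. Of the 13 members (8.67%) with an unadjusted p under 0.05, 5 were lower and 8 higher at recovery. This is a smaller share than the 17.3% of all genes tested, so the count is no result about the group. Members called higher appeared in addition under DESeq2 (4), RLE scaling (2), without wild-type pool 3 (2) and with the replicate block (1). The main fit called 0 members higher, and 387 of all 24992 genes tested. Shares over all genes are not given for the alternative fits, so these counts are no result about the group.

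**Figure D4:**
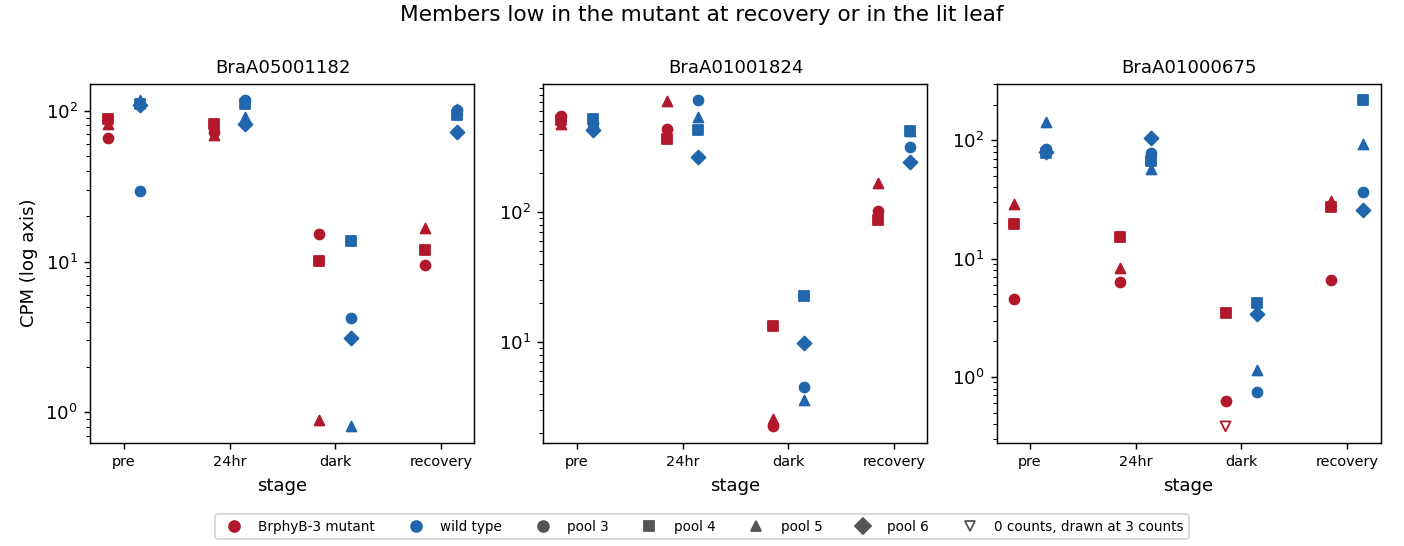
CPM on a log axis in every library by stage for BraA05001182, BraA01001824 and BraA01000675, with mutant libraries in red left of wild-type libraries in blue and 1 symbol per pool. An open triangle is a library with 0 counts drawn at 3 counts. Mutant recovery libraries of BraA05001182 lie at 9.41 to 16.6 CPM and wild-type ones at 72.0 to 102.6 CPM.

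BraA03004924 and BraA03004925 have consecutive ID numbers and moved together. They are named after their values were seen, because with BraA05001182, they were the 3 members whose mutant recovery and dark libraries overlapped. BraA03004924 had 7.06, 35.1 and 125 CPM at recovery in mutant pools 3, 4 and 5, against 10.5, 8.10 and 0.383 CPM at dark. BraA03004925 had 10.5, 50.0 and 154 CPM at recovery in the same pools, against 12.0, 10.4 and 0.893 CPM at dark. For both IDs pool 3 was still at its dark level, pool 4 was between and pool 5 was far above its dark level. The pre libraries ran from 55.3 to 121.8 CPM for BraA03004924, so pool 5 at recovery lay above all 3, and from 99.4 to 214 CPM for BraA03004925, where it lay among them. Both also varied in the wild type at recovery, with 152.7, 105.9, 27.2 and 44.0 CPM for BraA03004924 and 289.8, 140.8, 59.0 and 71.0 CPM for BraA03004925 in pools 3 to 6.

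Both were called higher at recovery than at dark in the mutant. The log2 fold changes were 3.30 (SE 0.94, adjusted p 0.00524, edgeR quasi-likelihood) for BraA03004924 and 3.37 (SE 0.89, adjusted p 0.00294) for BraA03004925. Without mutant pool 5 they were 1.33 (adjusted p 0.252) and 1.59 (adjusted p 0.159). BraA03004924 also missed the threshold when only the groups compared were fitted (adjusted p 0.0529). Their deviations from the group means over the 28 libraries had a Pearson r of 0.975, the highest of all 11175 pairs of members, whose median was 0.519. The libraries are shared by both IDs, and reads of near-identical copies may have been split between them, so they are not counted as independent.

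**Figure D5:**
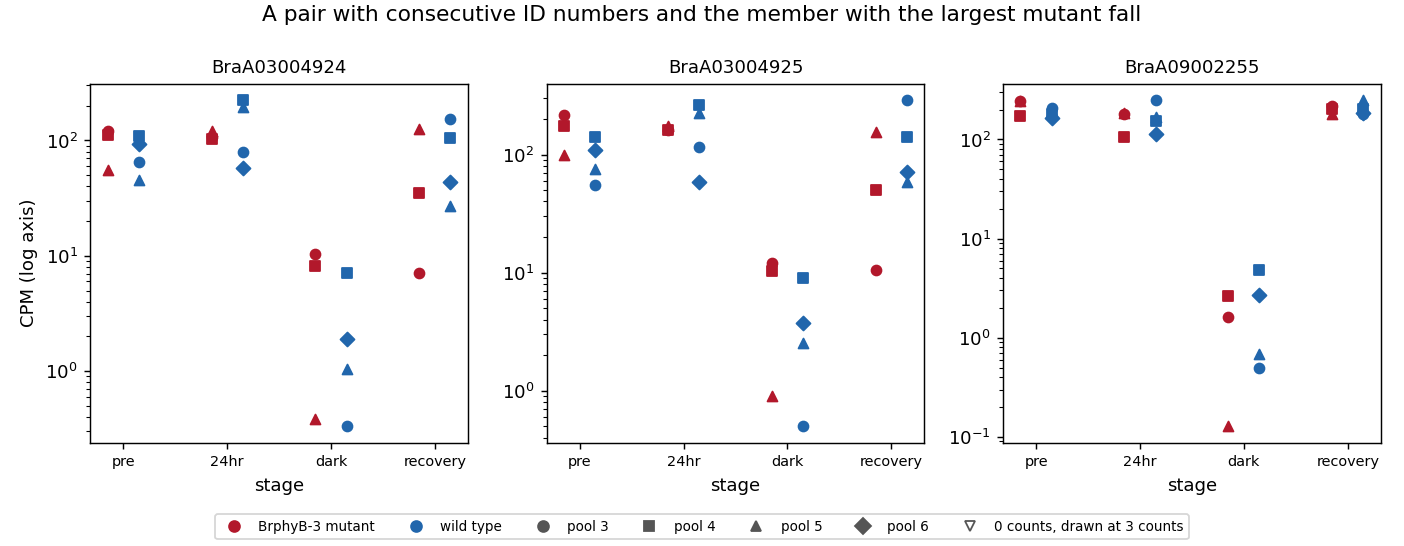
CPM on a log axis in every library by stage for BraA03004924, BraA03004925 and BraA09002255, with mutant libraries in red left of wild-type libraries in blue and 1 symbol per pool. At mutant recovery the first pair spreads from 7.06 to 125 CPM and from 10.5 to 154 CPM, while BraA09002255 lies between 180.3 and 217 CPM.

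The uncovered leaf was sampled on 2 days, which compares the level of the members between days without a cover. In mutant 24hr against mutant pre, 0 of 150 members passed edgeR's quasi-likelihood test, 1 had an unadjusted p under 0.05, and 0 passed the DESeq2 Wald test. Among all genes tested, 0.0% passed the edgeR test and 2.57% had an unadjusted p under 0.05. With no gene called at all, the count of 0 members is no result about the group. The members leaned to lower values at 24hr, with 134 of 150 below 0 and a median log2 fold change of -0.27, against 0.01 over all genes tested. The mean of the members changed by -0.04, -0.21 and -0.33 log2 units in mutant pools 3, 4 and 5 and by 0.15, -0.11, -0.07 and -0.09 in wild-type pools 3 to 6. Without mutant pool 5 the median was -0.16 and 114 members were below 0.

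Mutant against wild type at 24hr is the 1 comparison of genotypes on libraries the rule did not use. It is not free of the choice, because the wild-type 24hr punches came from the same leaf and plants as the wild-type pre punches. How far a wild-type pre level that helped to choose the members carries over to 24hr was not tested. By edgeR's quasi-likelihood test 0 of 150 members passed, where 0.088% of all genes tested were called, and 5 members had an unadjusted p under 0.05 (6.39% of all genes tested). The DESeq2 Wald test called 1 member. The median log2 difference was -0.28, with 129 of 150 members lower in the mutant, against a median of 0.01 over all genes tested. As differences of mean log2(CPM + 1), on library totals, the median was -0.11 for members, with 106 lower in the mutant. For all genes tested it was 0.12, so relative to all genes the members were lower on both scales. The mean of the members was 6.63, 6.52 and 6.56 log2 units in mutant pools 3 to 5 and 6.96, 6.70, 6.68 and 6.58 in wild-type pools 3 to 6, and the groups overlapped. Within each of the 3 same-numbered pairs, which correlated at this stage, the mutant library was the lower one. Without wild-type pool 3, the highest, the median difference was -0.13 and 106 members were lower in the mutant. A letter opens each sample description, and letters a and d each held a mutant and a wild-type pool. Within letter a, on library totals, 109 members were lower in the mutant with a median of -0.35 (all genes tested 0.23), and within letter d 92 were lower with a median of -0.11 (all genes tested 0.10).

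BraA05000283 had the highest difference at 24hr among the members not already named. It had 77.6, 103.8 and 24.9 CPM in the mutant and 49.9, 45.4, 26.1 and 35.4 CPM in the wild type. Mutant pool 5 was below every wild-type library and the other two were above them all. The log2 difference of 0.65 (SE 0.50, adjusted p 0.944, edgeR quasi-likelihood) did not pass. It was 0.18 without mutant pool 4 and 1.04 without mutant pool 5.

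BraA01000675 had the lowest difference at 24hr and is named after its values were seen. It had 6.37, 15.3 and 8.33 CPM at 24hr in the mutant and 78.1, 67.0, 56.9 and 104.7 CPM in the wild type. The groups were far apart, and the log2 difference was -3.07 (SE 0.82), but the adjusted p was 0.272 in edgeR's quasi-likelihood test, 0.0239 in the DESeq2 Wald test and 0.0345 when only these 2 groups were fitted with edgeR. At pre it had 4.58, 19.8 and 28.8 CPM in the mutant and 84.1, 78.7, 143 and 80.0 CPM in the wild type, with no overlap. The wild-type pre libraries helped to choose this member, so the difference at pre is not tested and adds no support. At recovery it had 6.64, 27.3 and 30.7 CPM in the mutant and 36.6, 219.5, 93.3 and 25.8 CPM in the wild type, where the groups overlapped. At dark it was low in both, with 0.631, 3.50 and 0 CPM in the mutant and 0.748, 4.26, 1.15 and 3.43 CPM in the wild type. In the mutant it still fell in darkness, with a log2 fold change of -3.93 (SE 0.95, adjusted p 0.00134), and rose at recovery by 4.16 (SE 0.96, adjusted p 0.000862).

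At the other stages the genotypes are set side by side with no test, since the rule used the wild-type libraries. On the log2(CPM + 1) scale the median member difference, mutant minus wild type, was 0.02 for pre, 0.21 for dark and -0.10 for recovery. The medians over all genes tested were 0.12, -0.03 and 0.03 at these stages. At pre 68 members (45.3%) were lower in the mutant, against 33.4% of all genes tested. At dark 55 members (36.7%) were lower, against 54.2%, and at recovery 95 members (63.3%) were lower, against 45.4%.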

How the data were processed

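Leaf RNA was measured in 28 libraries by poly(A) RNA sequencing. The deposited table held raw counts per gene ID, 1 column per library, with no normalization. The submitters' processing notes name bcl2fastq 2.17.1.14, Trimmomatic 0.36, Bowtie2 and HTSeq, without roles. The genome build, annotation and strand setting are not given in the sources used here, so counts are uncertain for near-identical copies and wherever genes overlap or run antisense.

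Members were found by the rule on library totals, and CPM are on library totals throughout. Tests used R 4.3.3 with edgeR 4.0.16: low counts were removed with filterByExpr (24992 genes kept, 99.9% of counts), libraries were TMM scaled, and 8 group means were fitted to all 28 libraries by quasi-likelihood (common biological coefficient of variation 0.365). Benjamini-Hochberg adjustment ran over all genes tested, and an adjusted p under 0.05 was called. Standard errors were derived from each log2 fold change and its F statistic. The code was tested on simulated data. Alternatives were DESeq2 1.42.0, other scaling, filters, samples, member lists and starting stages, a replicate block, and edgeR's robust option, which was added after seeing the data. The within-letter values were also added then.

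Replicates are pools of different plants. Libraries of the same pool come from the same plants per the labels, and their deviations from group means had a median correlation over genes of 0.15 in the mutant and 0.04 in the wild type. At 24hr same-numbered mutant and wild-type libraries had correlations of 0.346 to 0.568. For the genotype comparison the block was the replicate number, with an effect common to all stages. It therefore does not pair the 24hr libraries by themselves.

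The members and tests were chosen with earlier results of these data known. Named genes are the lowest and highest mutant log2 change in dark against pre, the highest in recovery against dark and the highest mutant minus wild-type difference at 24hr, with at least 10 CPM at mutant pre for the largest fall and the largest rise. Others are marked where named.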

Additional observations from a re-analysis of the deposited data

Results flagged for a closer look

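In 40 sets of 4 wild-type libraries (the member mean and 9 named members, each at 4 stages), 3 had a library far from the other 3. Chance gives about 1 in 20 for independent, normally distributed sets. These sets share libraries and the 9 members were named for their values, so that rate is only a rough guide. BraA05003403 had 8.12 CPM in wild-type dark pool 4, against 1.33 to 2.42 CPM in the others. That pool was the highest wild-type dark library in 133 of 150 members, so this is not particular to the gene. BraA05001182 had 29.5 CPM in wild-type pre pool 3, against 108.2 to 116.9 CPM in the others. BraA01000675 had 143 CPM in wild-type pre pool 5, against 78.7 to 84.1 CPM in the others.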

How the results depend on the processing

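The counts for mutant dark against pre and recovery against dark were 150 and 147 to 149 of 150 members under the alternatives run, with 299 and 295 of the 300 lowest genes and 100 and 99 of the 100 lowest. The count for 24hr against pre was 0 in each. With the plant pool as a replicate block the counts were 150, 149, 1 for recovery against pre and 0 for 24hr against pre. With replicate number as the block, 0 members passed between the genotypes at 24hr and 9 had an unadjusted p under 0.05, so the block changed no count in these 5 comparisons. In recovery against 24hr the block gave 3 calls, against 2 without it. For recovery against pre, DESeq2 called 2 members and 24hr as the start gave 2, BraA05001182 and BraA01001824 in both. RLE scaling gave 0 (7 at an unadjusted p under 0.05), only the groups compared gave 0 (18 unadjusted), and the 300 lowest genes gave 1. Leaving out each pool gave 0 to 1, with 6 to 9 unadjusted where it gave 0. Shares of all genes tested at an unadjusted p under 0.05 are not given for the alternative fits. The unadjusted counts are therefore no result about the group. At 24hr between the genotypes, DESeq2 and only the groups compared gave 1 each, BraA01000675 in both. The share of the log2 fall regained in the mutant was 102.5% with 24hr as the start, and 95.5% to 99.2% without 1 mutant pool. For each of these the cause was not tested. At dark, few counts in some libraries limit how well the lowest members are measured.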

Other observations

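The members were spread over the ID series of all 10 prefixes A01 to A10, from 6 members in A04 (4.0%, against 6.49% of all genes tested) to 20 each in A03 (13.3%, against 14.5%) and A09 (13.3%, against 14.2%). None of the 234 tested IDs of the scaffold series was a member. There were 3 pairs of members with consecutive ID numbers. Over the 28 libraries the deviations from group means had a Pearson r of 0.975, 0.83 and 0.125 in these pairs. Whether neighbouring IDs lie side by side in the genome was not analysed here.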
